A study of Schizosaccharomyces pombe with 4 samples.

Results

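The nuclear ribosomal RNA (rRNA) genes of fission yeast were followed in total RNA of *exo2*Δ and wild-type (WT) cells. They were taken as the features annotated as rRNA genes on any chromosome other than the mitochondrial one, which gave 47 of the 9139 features of the table. The rule then separates genes under 130 nt from longer ones, with 12 genes in the first group and 35 in the second. By the RefSeq annotation (assembly ASM294v3, in which all 47 genes have the coordinates of the table), 36 of the 47 are 5S genes. All 12 short genes are among these 36, and the other 24 are 5S features of 130 nt or more that carry flanking sequence. The 11 remaining genes are 3 for 5.8S, 5 for 18S and 3 for 28S rRNA. The length limit therefore does not separate 5S from the other rRNAs, and values are given by rRNA, and by length within the 5S genes.

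Total RNA came from *Schizosaccharomyces pombe* cells, with 2 biological replicates each of WT (strain YAM2394) and of *exo2*Δ (YAM2397, whose *exo2* gene gave way to kanMX4). Both strains also carry the markers *ade6-M210*, *ura4-D18* and *leu1-32*. Exo2 is the cytoplasmic 5′-3′ exoribonuclease of fission yeast, the counterpart of Xrn1 of budding yeast. rRNA was depleted with oligonucleotide capture before stranded libraries were prepared (125 ng of input), so the values below are what was left after depletion, and depletion and the amount in the cell cannot be told apart. The deposited density (tag/nt) is the number of reads on a feature divided by its length and scaled on the small nuclear and nucleolar RNAs.

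In fission yeast, RNA polymerase I copies tandem repeats near both ends of chromosome III into 1 precursor, from which the 18S, 5.8S and 28S rRNAs are cut. RNA polymerase III makes the 5S rRNA separately, from single genes scattered over the genome, each with promoter elements inside the transcribed part. In budding yeast, the 5′ end of 5.8S rRNA is known to be trimmed by the nuclear 5′-3′ exonuclease Rat1, whose fission yeast counterpart is Dhp1, and 5S rRNA reaches the ribosome bound to ribosomal proteins L5 and L11.

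The 36 5S genes lay on chromosomes I (12), II (16) and III (8). A stretch of 119 nt was held without change by 22 of them, and it occurred at 23 places of the genome. SPRRNA.55, of 115 nt, holds all of it but its ends. Of the other 13 genes, 11 differed from it at 1 to 3 positions and 2 were diverged. The sequences below are shown because they set which 5S reads can be told apart. They were read from ASM294v3 5′ to 3′, and positions are counted from 1 at the first base of the shared stretch, here that of SPRRNA.10 (I:149658-149776, + strand), with the 12 positions that differ in any of the 11 genes in capitals.
5S shared core: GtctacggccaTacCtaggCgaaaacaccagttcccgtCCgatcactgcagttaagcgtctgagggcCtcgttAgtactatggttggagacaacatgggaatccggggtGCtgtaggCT
The next sequences carry their own differences in capitals. SPRRNA.11 (I:456527-456645, +) has C20T and C118T. SPRRNA.05 (III:1690945-1691063, +) has C20T, as does SPRRNA.04. SPRRNA.53 (I:1563479-1563593, +) has C68T and starts at position 5 of the shared stretch. SPRRNA.12 (I:912230-912348, − strand) has G1A, C39T and C118T, SPRRNA.15 (I:3547900-3548018, −) has C15G and A74G, and SPRRNA.30 (II:569151-569269, +) has T12C.
SPRRNA.11: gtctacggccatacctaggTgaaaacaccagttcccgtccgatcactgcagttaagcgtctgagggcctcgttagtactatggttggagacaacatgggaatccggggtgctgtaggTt
SPRRNA.05: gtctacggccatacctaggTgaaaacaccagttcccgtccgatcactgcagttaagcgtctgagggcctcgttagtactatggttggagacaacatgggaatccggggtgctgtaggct
SPRRNA.53: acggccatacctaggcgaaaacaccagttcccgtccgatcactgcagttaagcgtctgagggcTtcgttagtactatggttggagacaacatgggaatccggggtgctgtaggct
SPRRNA.12: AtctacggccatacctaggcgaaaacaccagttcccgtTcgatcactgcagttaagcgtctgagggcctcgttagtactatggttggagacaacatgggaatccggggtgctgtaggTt
SPRRNA.15: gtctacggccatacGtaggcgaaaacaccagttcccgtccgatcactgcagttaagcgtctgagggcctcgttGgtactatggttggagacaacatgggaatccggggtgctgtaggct
SPRRNA.30: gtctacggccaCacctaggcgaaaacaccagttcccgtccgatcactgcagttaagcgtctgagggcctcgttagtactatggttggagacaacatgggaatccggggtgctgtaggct
The 3 genes for 5.8S rRNA are identical over 165 nt. This sequence is shown from SPRRNA.50 (III:9842-10006, −), because it took more reads than any other nuclear rRNA.
5.8S: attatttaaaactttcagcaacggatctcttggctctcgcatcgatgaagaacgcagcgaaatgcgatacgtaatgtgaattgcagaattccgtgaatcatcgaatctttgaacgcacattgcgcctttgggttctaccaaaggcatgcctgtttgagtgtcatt

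The share of 50-nt windows of a gene that occur once in the genome, 50 nt being the length of 1 read end, was 0% for the 5.8S and 28S genes and for 4 of the 5 18S genes, and 3.73% for SPRRNA.42. For 5S genes it ranged from 0% to 100%. All these genes except SPRRNA.41 and SPRRNA.45 held at least 32 reads in each library. Windows were taken inside the gene only, so read pairs with 1 end in the flank were not considered. The 5.8S and 28S genes have no window found once, so reads lying wholly inside them match several places. The rule by which such reads were placed is not given in the sources used here. The legends of the study name uniquely mapped reads for its plots of mRNA, sn(o)RNA and XUT densities, and do not speak of rRNA genes. Values of single genes with identical sequence are therefore uncertain, and the genes of each rRNA were also summed, an analysis chosen after the data were seen.

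Library totals over features lay between 46964618 and 51019820 reads. *exo2* itself had 0.488 and 0.458 (WT) against 0.663 and 0.636 tag/nt (*exo2*Δ). The targeted gene was thus not lower in them, and all directions below are drawn from the labels. The methods of the study state that both strains were checked by PCR and northern blot. Pairs of values are those of replicates 1 and 2, with *exo2*Δ in parentheses standing for the libraries so labelled. Of all 8826 features tested, 61.5% passed the threshold for a rise (ratio above 2 and adjusted p under 0.05) and 0.918% that for a fall (ratio under 0.5 and the same p). The median log2 ratio over all features was 1.23.

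Nuclear rRNA genes kept 26.8% and 27.8% of the reads of WT replicates 1 and 2, and 32.0% and 30.1% of those of the *exo2*Δ-labelled libraries (means of 27.3 ± 0.712% and 31.0 ± 1.30%, n = 2, SD). The groups did not overlap, and the exact two-sided permutation test gave p = 0.333, the smallest value that 2 libraries against 2 allow. Set against reads off rRNA genes, there were 39.1 ± 2.02 nuclear rRNA reads per 100 such reads in WT and 47.9 ± 3.01 in the *exo2*Δ-labelled libraries (SD, n = 2 each).

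The makeup of these reads differed between the genotypes. 5.8S rRNA took 51.5% and 53.2% of the nuclear rRNA reads in WT, and 81.2% and 82.3% in the *exo2*Δ-labelled libraries. 28S rRNA took 34.9% and 33.0% in WT, and 12.4% and 11.7% in the *exo2*Δ-labelled libraries. 18S rRNA went from 12.1% and 12.6% to 5.73% and 5.39%, and 5S rRNA from 1.49% and 1.21% to 0.704% and 0.668%. For each of the 4 rRNAs, the groups did not overlap (exact permutation p = 0.333 each). The 4 shares add up to 100%, so a higher share of 5.8S lowers the others, and they are not independent.

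Per nucleotide, 5.8S was also the most abundant rRNA left. Its summed density was 34402 and 37999 (WT) against 92706 and 87885 tag/nt (*exo2*Δ). The *exo2*Δ-labelled libraries both exceeded the WT ones. The log2 ratio was 1.32 ± 0.34 (SE), a 2.50-fold higher density (limma, adjusted p = 0.00808), where the median of all features was 1.23. With libraries scaled on the reads over all features, the log2 ratio was 0.83 and passed the test (limma, adjusted p = 0.0236). The adjusted p was 0.120 with libraries scaled on the reads off rRNA genes (log2 ratio 0.93). Scaled on the median of ratios over features, the log2 ratio of 5.8S was 0.11 (adjusted p = 0.855). The adjusted p was 0.0965 without WT replicate 1 and 0.0657 without WT replicate 2, at log2 ratios of 1.25 and 1.39.

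28S rRNA, the large subunit rRNA that pairs with 5.8S in the ribosome, moved the other way. Its summed density was 1105 and 1115 (WT) against 669 and 589 tag/nt (*exo2*Δ). The log2 ratio was -0.82 ± 0.11 (SE, limma, adjusted p = 2.80e-04). 18S rRNA, the small subunit rRNA, had 723 and 806 (WT) against 586 and 516 tag/nt (*exo2*Δ). It fell by 0.47 ± 0.11 on the log2 scale (limma, adjusted p = 0.00537). Neither fall reached 2-fold with the authors' scaling. Under the other 3 scalings (reads over all features, reads off rRNA genes, median of ratios), the log2 ratio was -1.31, -1.21 and -2.03 for 28S and -0.97, -0.86 and -1.68 for 18S, so that 28S was past 2-fold in each and 18S in the last.

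5S rRNA had 1384 and 1196 tag/nt in WT when the reads of its 36 genes were summed over the 119 nt of the shared stretch, and 1115 and 989 tag/nt in the *exo2*Δ-labelled libraries. Neither *exo2*Δ-labelled library reached the WT libraries, and the log2 ratio of -0.29 ± 0.13 (SE) did not pass the test (limma, adjusted p = 0.0652). It passed at 0.0495 without *exo2*Δ replicate 1, at a log2 ratio of -0.38. It also passed under each of the other 3 scalings, at -0.79 (reads over all features), -0.68 (reads off rRNA genes) and -1.50 (median of ratios).

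**Figure D1:**
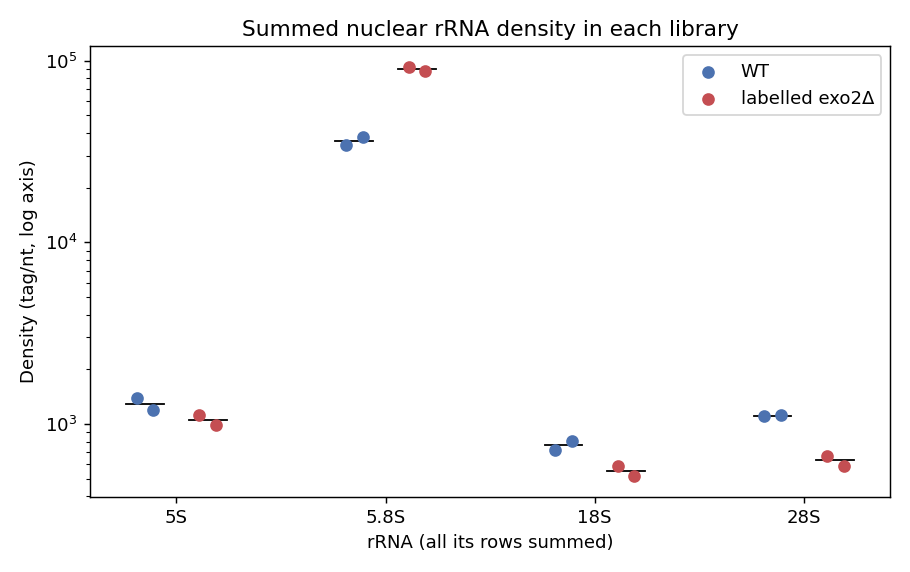
Density (tag/nt, log axis) of the summed genes of each nuclear rRNA. Each point is 1 library (blue, WT; red, labelled *exo2*Δ) and each line the mean of 2 libraries. 5.8S lies above both WT libraries in the *exo2*Δ-labelled libraries (1.32 on the log2 scale) and 18S and 28S lie below.

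Ratios between rRNAs within a library do not depend on the scaling. The density of 5.8S over that of 28S was 31.1 and 34.1 in WT replicates 1 and 2, and 139 and 149 in the *exo2*Δ-labelled libraries. The ratio was thus 4.41-fold higher in the latter, and the groups did not overlap (exact two-sided permutation p = 0.333). 5.8S over 18S was 47.6 and 47.1 in WT, and 158 and 170 in the *exo2*Δ-labelled libraries. The ratio of 5S to 28S was 1.25 and 1.07 in WT, and 1.67 and 1.68 in the *exo2*Δ-labelled libraries. The ratio of 18S to 28S was 0.655 and 0.723 in WT and 0.875 and 0.875 in the *exo2*Δ-labelled libraries. The groups overlapped for 5S over 18S, at 1.91 and 1.48 (WT) against 1.90 and 1.92 (*exo2*Δ) (exact permutation p = 0.667). Ribosomes hold 5.8S, 18S and 28S rRNA in equal numbers, and the densities left after depletion were unequal in every library.

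The 11 genes of the repeats lie on chromosome III, in 2 clusters. The first, on the − strand, runs from SPRRNA.42 (18S, III:1-1390) through SPRRNA.47 (28S, III:6057-9541), SPRRNA.50 (5.8S), SPRRNA.43 (18S, III:10419-12260), SPRRNA.48 (28S, III:16927-20411) and SPRRNA.51 (5.8S, III:20712-20876) to SPRRNA.44 (18S, III:21289-23130). The second, on the + strand, holds SPRRNA.46 (18S, III:2440994-2442835), SPRRNA.52 (5.8S, III:2443248-2443412), SPRRNA.49 (28S, III:2443713-2447197) and SPRRNA.45 (18S, III:2451883-2452883). SPRRNA.42 and SPRRNA.45 are cut by the chromosome ends of the assembly. The 3 28S genes are identical over 3485 nt, and the 3 full 18S genes over 1842 nt. SPRRNA.45 matches their first 1001 nt, and SPRRNA.42 differs at 1 of the first 1390.

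Identical genes did not hold equal numbers of reads. SPRRNA.51 took 53.0% to 53.9% of the 5.8S reads over the 4 libraries, SPRRNA.50 29.3% to 29.8% and SPRRNA.52 16.8% to 17.2%. For 28S, SPRRNA.48 took 58.3% to 58.7%, SPRRNA.47 28.1% to 28.4% and SPRRNA.49 13.1% to 13.2%. These shares hardly moved between libraries, so that the 3 genes of each rRNA had the same ratio between genotypes. For 18S, SPRRNA.43 took 37.6% to 38.7%, SPRRNA.44 29.3% to 30.7%, and SPRRNA.42 27.8% to 29.9%. SPRRNA.46 took only 3.45% and 3.82% in WT, and 2.15% and 2.45% in the *exo2*Δ-labelled libraries, although its sequence is that of SPRRNA.43 and SPRRNA.44.

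**Figure D2:**
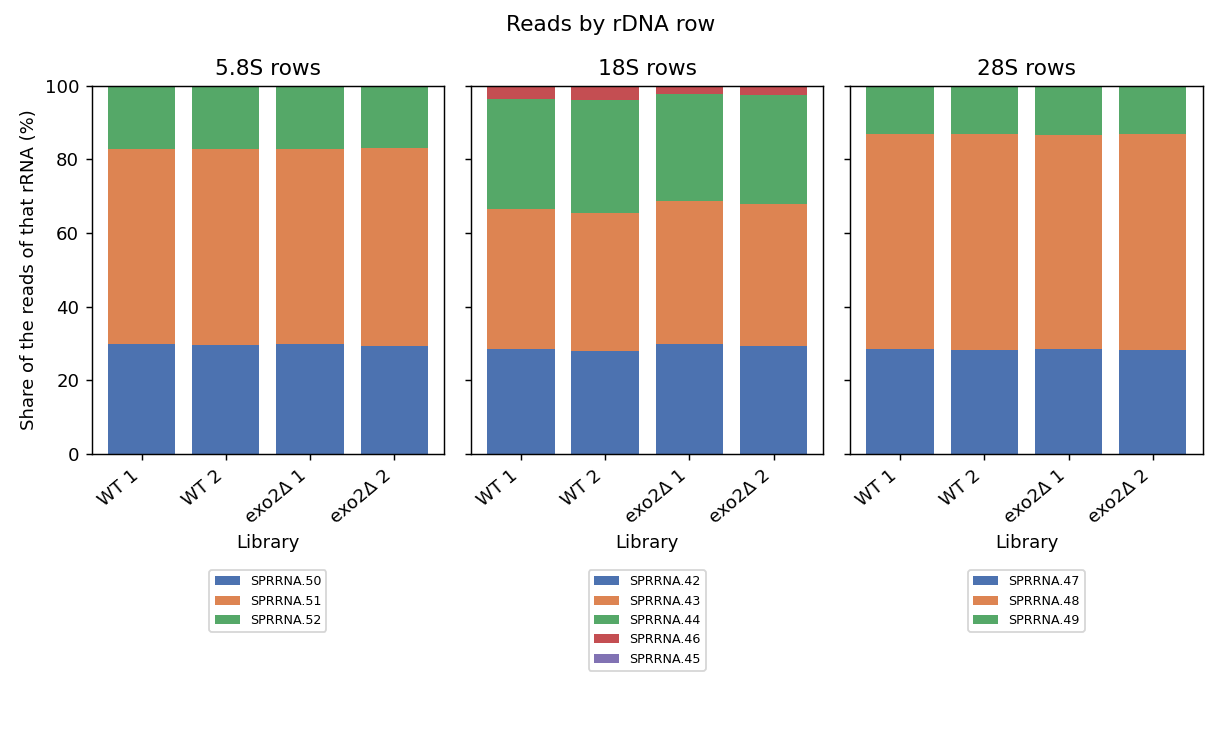
Share of the reads of 5.8S, 18S and 28S rRNA (%) on each gene in each library. The segments of 5.8S and 28S have near-constant heights, with SPRRNA.51 at 53.0% to 53.9% and SPRRNA.48 at 58.3% to 58.7%, and the thin segment of SPRRNA.46 is smaller in the *exo2*Δ-labelled libraries.

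Of the 46 nuclear rRNA genes with at least 10 reads, 3 rose (background 61.5%) and 4 fell (background 0.918%). Under the other 3 scalings, 0 rose and 12, 8 and 41 fell. These scalings shifted the log2 ratios of all features by -0.49, -0.39 and -1.20. Both backgrounds are those of the authors' scaling. All 3 that rose were the 5.8S genes, which are identical and have no window found once, so these are not 3 separate results. SPRRNA.51 had 18250 and 20322 (WT) against 49285 and 47336 tag/nt (*exo2*Δ), with a log2 ratio of 1.33 ± 0.28 (SE, limma, adjusted p = 0.00294). SPRRNA.50 had 10241 and 11180 (WT) against 27605 and 25743 tag/nt (*exo2*Δ), and a log2 ratio of 1.32. SPRRNA.52 had 5912 and 6497 (WT) against 15816 and 14806 tag/nt (*exo2*Δ), and a log2 ratio of 1.30. No 5.8S gene passed when features with few reads were kept in the fit (adjusted p from 0.143 to 0.441), and their log2 ratios lay between 0.81 and 0.83 when libraries were scaled on all reads.

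The 28S genes did not reach a 2-fold fall with the authors' scaling, and each did under the other 3. SPRRNA.48 had 645 and 655 (WT) against 390 and 345 tag/nt (*exo2*Δ), and SPRRNA.47 and SPRRNA.49 had 313 and 314, and 146 and 146 tag/nt in WT, against 190 and 167, and 88.6 and 77.6 tag/nt. Their log2 ratios were all -0.82 (limma, adjusted p = 1.87e-04 for SPRRNA.48). Among the 18S genes, SPRRNA.46 fell past 2-fold, from 24.9 and 30.8 tag/nt to 12.6 and 12.6 tag/nt (log2 ratio -1.13 ± 0.10, SE, adjusted p = 3.67e-05). Without WT replicate 2 its log2 ratio was -0.98. SPRRNA.46 is identical to SPRRNA.43 and SPRRNA.44 and has 0% of its windows found once, so its value as a single gene is uncertain. SPRRNA.42, SPRRNA.43 and SPRRNA.44 had log2 ratios of -0.41, -0.44 and -0.52. SPRRNA.43 had 274 and 304 (WT) against 227 and 199 tag/nt (*exo2*Δ), SPRRNA.44 218 and 248 against 171 and 154, and SPRRNA.42 273 and 297 against 232 and 199. SPRRNA.45 held 2 and 4 (WT) against 4 and 1 reads (*exo2*Δ), which allows no comparison.

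Annotated noncoding genes beside the repeats were compared with them. SPNCRNA.1095 (III:23919-24438, −), 788 nt upstream of SPRRNA.44 on its strand, had 80.3 and 84.4 (WT) against 48.9 and 46.5 tag/nt (*exo2*Δ). SPNCRNA.1094 (III:23658-23889, −), 527 nt upstream, had 57.5 and 59.6 (WT) against 37.7 and 34.6 tag/nt (*exo2*Δ). Their log2 ratios of -0.79 ± 0.07 and -0.70 ± 0.07 (SE, limma, adjusted p = 3.24e-05 and 6.91e-05) were near that of 28S rRNA, and neither gene has a 50-nt window found once in the genome. In the spacer between the first repeats, XUT0007 (III:15095-15312, −) held 8 to 34 reads a library, with a log2 ratio of 1.45 ± 0.41 (adjusted p = 0.0124), and SPNCRNA.1299 (III:2448764-2449506, +), between SPRRNA.49 and SPRRNA.45, held 5 to 14 (1.20 ± 0.49, adjusted p = 0.0536).

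The 5S genes had low densities for single genes, with 2 exceptions. The median over the 36 genes was 12.1 and 10.6 (WT) against 10.2 and 9.27 tag/nt (*exo2*Δ), from a median of 2650 and 2044 against 1608 and 1509 reads a gene. Quartiles were 9.53 and 21.3 tag/nt in WT replicate 1, and 6.42 and 16.5 tag/nt in *exo2*Δ replicate 2. The coefficient of variation among genes was 213% and 220% in WT, and 239% and 236% in the *exo2*Δ-labelled libraries. A density here also depends on how much flank the annotated gene carries, since lengths ran from 80 to 440 nt.

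Reads were concentrated on SPRRNA.05 and SPRRNA.53. SPRRNA.05 had 326 and 291 (WT) against 292 and 250 tag/nt (*exo2*Δ). SPRRNA.53 had 291 and 261 (WT) against 275 and 246 tag/nt (*exo2*Δ). Together these 2 genes held 46.2% and 48.0% of all 5S reads in WT, and 52.7% and 51.9% in the *exo2*Δ-labelled libraries. Each genotype's range overlapped the other for both genes, and their log2 ratios were -0.19 ± 0.11 and -0.08 ± 0.10 (SE, limma, adjusted p = 0.138 and 0.439). In SPRRNA.53, 75.8% of the 50-nt windows occurred once in the genome, and in SPRRNA.05 8.54%, its C20T being shared with SPRRNA.04 and SPRRNA.11. The 3 genes with C20T held 34.8% and 35.5% of the 5S reads in WT, and 36.5% and 35.2% in the *exo2*Δ-labelled libraries.

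By sequence, the 23 genes identical to the shared stretch held 27.5% and 27.2% of the 5S reads in WT, and 29.3% and 30.1% in the *exo2*Δ-labelled libraries. The 11 genes with 1 to 3 substitutions held 72.5% and 72.8% in WT, and 70.7% and 69.8% in the *exo2*Δ-labelled libraries. The median density of the identical genes was 11.98 and 10.1 tag/nt in WT and that of the substituted genes 34.0 and 29.7 tag/nt. In the *exo2*Δ-labelled libraries these medians were 10.1 and 8.97 tag/nt, and 16.3 and 14.9 tag/nt. Identical genes were also closer to each other. Their coefficient of variation was 52.9% to 56.3% over the 4 libraries, against 143% to 168% for the substituted genes. The substituted genes include SPRRNA.05 and SPRRNA.53, which alone held 46.2% and 48.0% of the 5S reads in WT. Reads lying inside the shared stretch cannot be told apart among the identical genes.

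**Figure D3:**
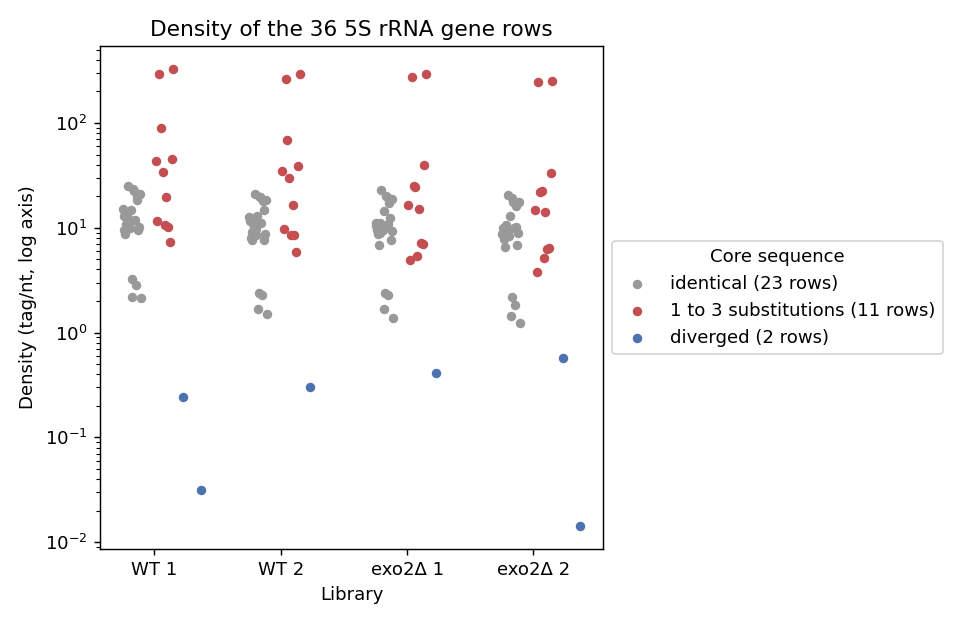
Density (tag/nt, log axis) of the 36 5S genes in each library, with 1 point a gene, coloured by how the gene compares with the shared 119 nt. 2 genes with a substitution lie at 246 tag/nt or more in every library, and SPRRNA.41 is not drawn where it had no read.

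At the other end were SPRRNA.41 and SPRRNA.54, with diverged sequence, and SPRRNA.07, which holds the shared stretch unchanged. SPRRNA.41, of 80 nt, held 3, 0, 0 and 1 reads, with 9 substitutions over the 74 nt aligned, and was not tested. SPRRNA.54, of 111 nt, has 20 substitutions and 100% of its windows occur once in the genome. It held 32 and 37 (WT) against 39 and 55 reads (*exo2*Δ), or 0.243 and 0.301 against 0.412 and 0.568 tag/nt. Its log2 ratio of 0.84 ± 0.18 (SE, limma, adjusted p = 0.00300) was the highest of the 5S genes and under 2-fold. It was 1.07, past 2-fold, without *exo2*Δ replicate 1 (adjusted p = 0.00581) and -0.37 with the median of ratios. SPRRNA.07, of 198 nt, had 2.15 and 1.498 (WT) against 1.39 and 1.24 tag/nt (*exo2*Δ). It held 503 and 329 (WT) against 235 and 214 reads (*exo2*Δ).

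Of the 35 5S genes tested, 3 fell past 2-fold (background 0.918%) and 0 rose (background 61.5%). Backgrounds in this paragraph are shares of all features under the authors' scaling. Beside these counts, 13 were lower with an adjusted p under 0.05 at any size (background 4.23%) and 1, SPRRNA.54, was higher (background 84.2%). The 13 became 22 without WT replicate 2, 8 without *exo2*Δ replicate 2 and 34 under each of the other 3 scalings. In 19 of the 35, both *exo2*Δ-labelled libraries were below both WT libraries, where 5.88% of all features had this order. The reverse order was found for 1, where 88.5% of all features had it. The median log2 ratio was -0.37 for the 11 short genes tested and -0.20 for the 24 longer ones, against 1.23 over all features. The medians of the replicate pairs were -0.45 and -0.28 for the short genes, and -0.21 and -0.17 for the longer ones.

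All 3 that fell are among the 11 genes with 1 to 3 substitutions. Reads inside the shared stretch cannot be told apart among the 23 identical genes, so a fall of a single one could be hidden. SPRRNA.15 fell furthest, from 89.6 and 69.2 tag/nt in WT to 24.9 and 22.0 tag/nt in the *exo2*Δ-labelled libraries (log2 ratio -1.75 ± 0.13, SE, limma, adjusted p = 1.57e-05). SPRRNA.11 fell from 43.5 and 34.8 tag/nt to 16.3 and 14.9 tag/nt (-1.32 ± 0.11, adjusted p = 2.84e-05). SPRRNA.12 fell from 11.5 and 9.64 tag/nt to 4.95 and 3.75 tag/nt (-1.29 ± 0.14, adjusted p = 1.09e-04). The WT libraries were above the *exo2*Δ-labelled libraries for each of them. The share of windows found once was 85.7% for SPRRNA.15, 73.7% for SPRRNA.12 and 0% for SPRRNA.11. All 3 fell past 2-fold under every alternative run.

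SPRRNA.30, with T12C, was just outside the 2-fold limit, and past it without WT replicate 2 (log2 ratio -1.02) and under the other 3 scalings (-1.34, -1.24 and -2.05). It had 10.7 and 8.48 (WT) against 5.43 and 5.16 tag/nt (*exo2*Δ), a log2 ratio of -0.85 (adjusted p = 2.49e-04). SPRRNA.40, which shares T12C, had a log2 ratio of -0.47. C118T is carried by SPRRNA.11 and SPRRNA.12, and also by SPRRNA.37, which had 7.396 and 5.85 (WT) against 7.01 and 6.46 tag/nt (*exo2*Δ) (log2 ratio 0.03 ± 0.11, SE, adjusted p = 0.787). C20T is carried by SPRRNA.11, and also by SPRRNA.04 and SPRRNA.05, at -0.21 and -0.19. Not every gene with C118T or with C20T fell past 2-fold. Of the C20T genes, SPRRNA.11 has 0% of its windows found once, SPRRNA.05 8.54% and SPRRNA.04 26.9%. Their single values are therefore uncertain, and the role of a substitution was not tested. The 23 identical genes had log2 ratios from -0.56 (SPRRNA.17) to 0.07 (SPRRNA.14), with a median of -0.18, and that of the 11 substituted genes was -0.44. SPRRNA.14 had 9.55 and 7.93 (WT) against 9.48 and 8.74 tag/nt (*exo2*Δ), and its sign turned under each of the other 3 scalings.

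**Figure D4:**
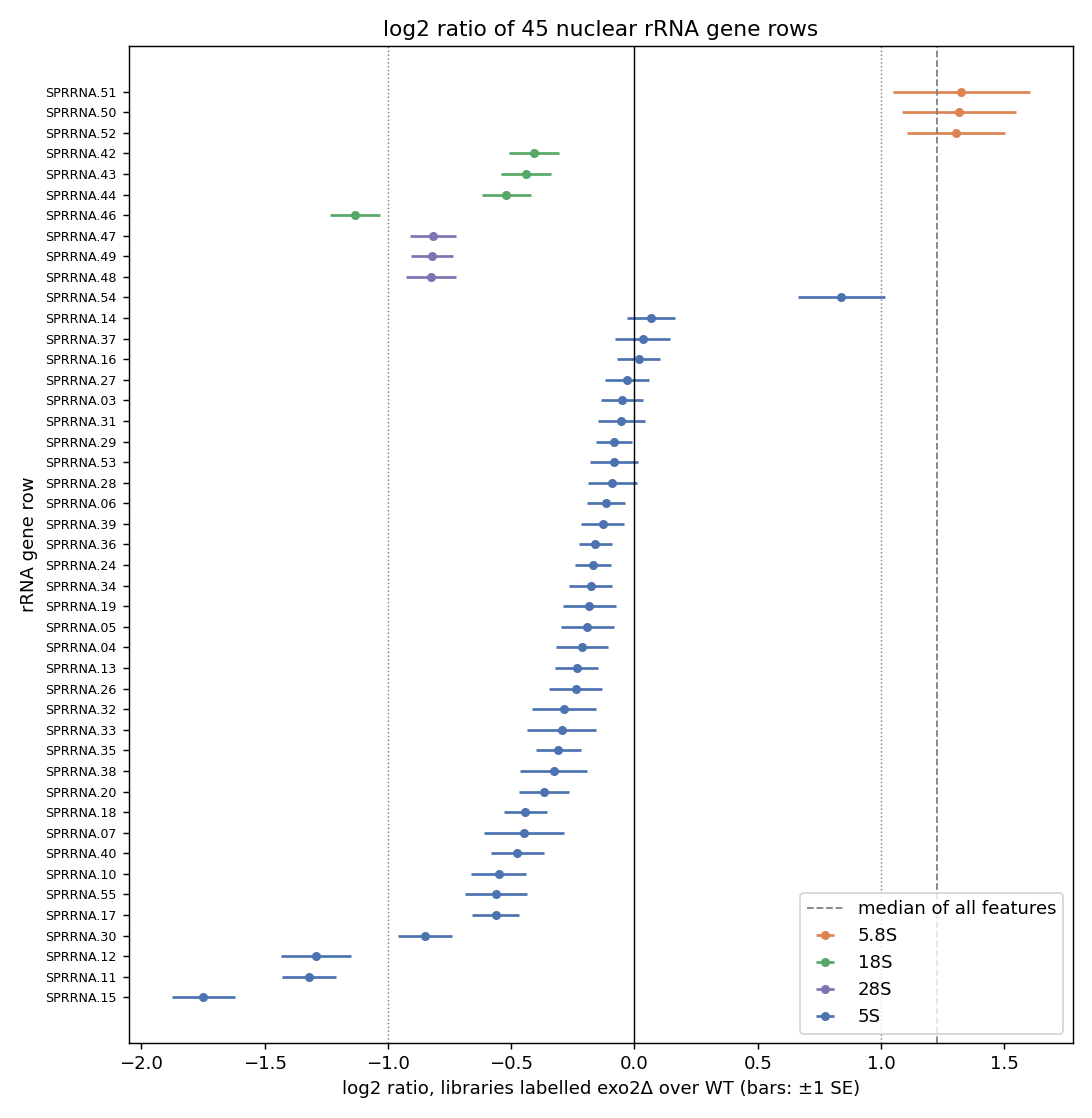
log2 ratio (libraries labelled *exo2*Δ over WT, ±1 SE) of 45 nuclear rRNA genes, by rRNA. The dashed line is the median of all features (1.23) and the dotted lines mark 2-fold. The 3 5.8S genes sit beside the dashed line and SPRRNA.15 is lowest, at -1.75.

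Of the 5S genes, 4 overlap a longer gene of the same strand, whose density includes reads on the shared part. SPRRNA.15 and SPRRNA.10 lie wholly inside it, while 6 nt of SPRRNA.35 and 44 nt of SPRRNA.07 lie outside. SPRRNA.15 is inside *pan3*, which encodes a subunit of the Pan2-Pan3 deadenylase. *pan3* had 4.28 and 3.33 (WT) against 1.25 and 1.11 tag/nt (*exo2*Δ) (log2 ratio -1.68). The 5S gene accounted for 97.2% and 96.5% of the reads on *pan3* in WT, and 92.4% and 92.2% in the *exo2*Δ-labelled libraries. Without them, *pan3* had 0.126 and 0.123 (WT) against 0.0998 and 0.0905 tag/nt (*exo2*Δ), a log2 ratio of -0.39.

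The reads on SPRRNA.35 equalled 78.7% and 73.9% of those on its partner SPBC24C6.03 in WT, and 57.2% and 53.0% in the *exo2*Δ-labelled libraries, an upper limit of its part in them. The log2 ratio of SPBC24C6.03 was 0.16. Those on SPRRNA.07 equalled 41.4% and 35.4% of the reads on *agp3* in WT, and 9.46% and 8.59% in the *exo2*Δ-labelled libraries, again an upper limit, and the log2 ratio of *agp3* was 1.64. SPRRNA.10 is inside SPAC5H10.03, of whose reads it made up 4.20% to 6.07%, and the log2 ratio of SPAC5H10.03 was -0.32 with them and -0.30 without. The 31 tested 5S genes with no such overlap had a median log2 ratio of -0.18, and 2 of them fell past 2-fold (background 0.918%).

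Messenger RNAs of factors that make or process rRNA were counted from lists with all members matched by symbol. Of 14 mRNAs of RNA polymerase I and its factors, 7 rose and 0 fell (median log2 ratio 1.00), and of 20 of RNA polymerase III and its factors, 15 rose and 0 fell (1.32). Among 5079 mRNAs tested, 54.8% rose, 0.276% fell and the median was 1.08. The polymerase I mRNAs that rose were *rpc19*, *rrn3*, *rrn5*, *reb1*, *rrn11*, *rpa34* and *ker1*, with log2 ratios from 1.04 to 2.34. *ker1*, which encodes a polymerase I subunit, had 1.14 and 1.29 (WT) against 5.75 and 6.51 tag/nt (*exo2*Δ). *nuc1*, which encodes the largest polymerase I subunit, had 2.19 and 2.05 (WT) against 2.77 and 2.75 tag/nt (*exo2*Δ), a log2 ratio of 0.38. The polymerase III mRNAs that rose were *rpc11*, *sfc1*, *maf1*, *rpc17*, *sfc2*, *sfc7*, *rpc31*, *sfc9*, *sfc6*, *rpc25*, *brf1*, *sfc4*, *rpc53*, *rpc34* and *bdp1*, with log2 ratios from 1.06 to 2.096. *maf1*, which encodes a repressor of polymerase III, had 0.227 and 0.220 (WT) against 0.460 and 0.508 tag/nt (*exo2*Δ).

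Of 38 mRNAs for rRNA processing and decay, 20 rose and 0 fell, with a median log2 ratio of 1.01. Those that rose were *cid14*, *rrp4*, *rok1*, *rrp40*, *rio1*, *mtl1*, *imp4*, *rrp41*, *nob1*, *utp7*, *imp3*, *rrp46*, *pac1*, *air1*, *rio2*, *rrp7*, *enp1*, *mtr3*, *utp6* and *rrp45*, with log2 ratios from 1.01 to 2.24. *pac1*, which encodes the RNase III that cuts the rRNA precursor, had 0.930 and 0.852 (WT) against 4.04 and 4.37 tag/nt (*exo2*Δ). *dhp1*, the nuclear exonuclease named above, had 0.637 and 0.607 (WT) against 0.850 and 0.835 tag/nt (*exo2*Δ), a log2 ratio of 0.44. Of 6 mRNAs for proteins that bind 5S rRNA or load it, *rrs1* and *rpf2*, which encode the assembly factors, rose (log2 ratios of 1.46 and 1.01). The log2 ratios of *rpl501* and *rpl502* (protein L5) were -0.44 and -0.18, and those of *rpl1101* and *rpl1102* (protein L11) 0.01 and -0.81. The share of each list that rose was read beside that of all mRNAs, and no list was tested.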

How the data were processed

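Density in tag/nt was used as deposited by the authors, a signal made from reads mapped to ASM294v2 with TopHat, divided by feature length and normalized on sn(o)RNAs. The authors' sums over replicates were not used. Multiplied by length, 100% of nonzero densities of a library were whole multiples of a single step (tolerance 0.01), which gave the reads. These were 46964618 to 51019820 a library. Reads on overlapping features count more than once.

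log2(density + 1.55e-04), the pseudocount being 0.5 times the smallest nonzero density, was fitted with limma 3.58.1 (R 4.3.3) on genotype with a trended variance prior, for 8826 of 9139 features with at least 10 reads over the 4 libraries. The Benjamini-Hochberg adjustment ran over all of them. They measure the spread between 2 biological replicates a genotype. A linear test on log2 density was used because the table holds no counts. On data with known changes drawn for 8826 features, 179 of 200 features changed 4-fold were recovered, with 4 false calls. There, as many features were raised as lowered, the rest did not shift, and the spread between libraries was fixed. In the real data, 84.2% of features were higher with an adjusted p under 0.05. The check therefore gives no error rate for the calls above. Shares of reads were compared by an exact permutation test.

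The genes and lists were chosen with earlier results of these data known. The rule named all genes longer than 130 nt (of the 5S genes among them, some are only plotted), the 3 highest and 3 lowest 5S genes by WT density and by ratio, every gene called, every listed mRNA past 2-fold, *exo2*, and overlapping or flanking genes. Other 5S genes were named after their values were seen, to compare shared substitutions. Substitutions come from a global alignment with biopython 1.88. Gene symbols are those of RefSeq, which pairs 4261 of 5129 mRNAs with one.

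Alternatives were 3 other scalings, other filters and pseudocounts, a replicate block, voom weights, a prior without trend and each library left out.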

Additional observations from a re-analysis of the deposited data

How the results depend on the processing

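The scaling had the widest effect. Relative to the authors' sn(o)RNA scaling, log2 ratios shifted by -0.49 with libraries scaled on all reads, by -0.39 with reads off rRNA genes and by -1.20 with the median of ratios. Under these 3, in that order, 12, 8 and 41 nuclear rRNA genes fell and 0, 0 and 0 rose, and the median of the 5S genes was -0.86, -0.75 and -1.57 (under 130 nt) and -0.69, -0.59 and -1.41 (longer). Summed 5S was -0.79, -0.68 and -1.50, and passed the test each time. Summed 5.8S was 0.83 with all reads, and passed (limma, adjusted p = 0.0236). It was 0.93 (adjusted p = 0.120) with reads off rRNA genes and 0.11 with the median of ratios, and neither passed. Listed mRNAs that rose numbered 3, 4 and 1 for polymerase I, and 7, 9 and 0 for polymerase III. They numbered 8, 12 and 1 for processing and decay, and 0, 1 and 0 for 5S binding. The shares of all features and of all mRNAs given above hold for the authors' scaling only. No such share stands beside the counts under these 3. The sign turned under these 3 scalings for SPRRNA.14 (-0.43, -0.32 and -1.14), SPRRNA.16 (-0.48, -0.37 and -1.19) and SPRRNA.37 (-0.46, -0.35 and -1.17), and under the median of ratios for SPRRNA.54 (-0.37). SPRRNA.45, with 11 reads, was 0.022 with the larger pseudocount and 0.046 with voom weights. With no filter on low reads, 0 nuclear rRNA genes rose. The cause was not tested.

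With the replicate block, 2 genes rose and 4 fell, and summed 5.8S kept its log2 ratio of 1.32 with an adjusted p of 0.196. Among calls past 2-fold it changed that of SPRRNA.51 alone (adjusted p = 0.0658), and 22 5S genes in place of 13 were lower with an adjusted p under 0.05. That number was also 22 with voom weights, 9 with no filter and with the prior without trend, and 34 under each of the 3 scalings. Same-numbered libraries deviated together with r = 0.283 over 5447 features, but the labels do not say that a number marks a shared batch.

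With each library left out in turn, summed 5S ranged from -0.40 to -0.19, summed 5.8S from 1.25 to 1.39, the 5S medians from -0.51 to -0.22 (under 130 nt) and from -0.32 to -0.11 (longer), and the mRNAs of the 5S binding list that rose from 1 to 2. Genes whose sign turned ranged from -0.165 to 0.065 (SPRRNA.03), -0.068 to 0.20 (SPRRNA.14), -0.082 to 0.12 (SPRRNA.16), -0.13 to 0.074 (SPRRNA.27), -0.21 to 0.037 (SPRRNA.28), -0.17 to 0.062 (SPRRNA.31), -0.14 to 0.20 (SPRRNA.37) and -1.02 to 0.88 (SPRRNA.45). Summed 18S and 28S kept direction and side of the test under every alternative run on them. The analyses that sum the genes of each rRNA or leave the 5S reads out of a host gene were chosen after seeing the data.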
